A study of Mus musculus with 24 samples.

Results

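The response of skin to LL37 was compared with the response of the dorsal root ganglia (DRG), gene by gene. The members were the 17251 of 45777 genes in the deposited table that passed an expression filter in both tissues (37.7%). For each of them the change in skin (rosacea model minus control) and the change in DRG were estimated, and the difference between the 2 changes was tested. The study used polyA RNA sequencing of 24 mouse libraries in 4 groups of 6, with skin and DRG each taken from controls and from the rosacea model. Per the series text the animals were female BALB/c mice of 6 weeks, an albino strain. The text describes LL37 given into the skin at 320 µM in 40 µL, 2 times a day for 2 days, and DRG collected on day 4; the day of skin collection is not given there. It also describes oral gabapentin from day 3, and neither it nor the labels say which of these libraries, if any, came from mice given gabapentin. What the controls received, the injection site, which ganglia were taken and whether each library is a separate animal are likewise not stated. The p-values therefore measure the spread between these samples, which may be partly technical.

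LL37 is the active peptide cut from cathelicidin, an antimicrobial protein of skin that is abundant in rosacea, and injecting it produces redness and immune cell infiltration in mouse skin. The DRG hold the cell bodies of the sensory neurons whose axons end in skin, together with satellite glia, Schwann cells and a few resident macrophages. Inflamed or injured axons are known to induce a growth programme in the cell body, with Atf3, Sprr1a, Gap43, Sox11 and the neuropeptide Gal among its best known genes, whereas interferons and chemokines act mainly where immune cells gather.

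Total counts were 45238735 to 68396846 per library. The tissue labels matched their markers: the neuronal sodium channel gene Scn10a stood at 1146 to 1381 CPM (read counts scaled for library size) in model DRG and 0 to 0.147 in model skin, and the keratinocyte keratin Krt5 at 3184 to 6562 in model skin and 0 to 0.0635 in model DRG. Skin libraries also held muscle, with the actin gene Acta1 at 337 to 3152 CPM. Model DRG library 5 stood apart from the other DRG libraries, with summed neutrophil markers at 503 CPM, red blood cell markers at 1869 and proliferation genes at 263. The next highest DRG library was control library 6 in each case, at 155, 629.9 and 129 CPM. Control skin library 2 stood apart in skin: the 14 hair follicle genes in the table summed to 1276 CPM there, against 37649 to 58853 in the other control libraries and 1983 to 29108 (median 9883) in model skin. In bulk tissue, fewer cells of a type and less RNA per cell cannot be told apart.

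The 2 tissues differed mainly in how many genes responded. In skin 3370 genes were called (19.5% of those tested): 2581 rose (15%) and 789 fell (4.57%). The number of falls was not stable: it was 2681 without control skin library 2 (5842 calls in all) and 307 without model skin library 4, and over the 24 fits without 1 library it was lower by over 1.5 times in 6 and higher by over 1.5 times in 8. Rises made up 76.6% of the skin calls, 64.1% with RLE factors (1354 falls), 56.2% with DESeq2 (2195 falls) and 54.1% without control skin library 2. With skin changes taken from the fit of all 24 libraries they made up 47.6% (3321 falls). In DRG 16 genes were called (0.0927%), and all 16 rose. A call means a Benjamini-Hochberg adjusted p under 0.05 in edgeR's two-sided quasi-likelihood test over all 17251 genes. At an unadjusted p under 0.05, 925 genes were higher and 798 lower in model DRG (9.99% in both directions together), against 6020 genes in skin (34.9%). The spread was smaller in DRG, with a median standard error (SE) of the log2 fold change of 0.0919 against 0.155 in skin. For 13643 genes (79.1%) the 95% interval of the DRG change lay within 1.5-fold of no change.

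The difference between the skin change and the DRG change was called for 2942 genes (17.1%). It was above 0, with a skin change more positive than the DRG change, for 1832 genes (10.6%) and below 0 for 1110 (6.43%). The share above 0 was 62.3%, and 76.9% when each tissue was normalised on its own, which left 654 genes below 0. The count below 0 also moved with single libraries: it was 556 without control DRG library 4, 580 and 638 without control DRG libraries 2 and 1, 602 and 724 without model DRG libraries 4 and 6, 647 and 684 without control skin libraries 1 and 5, 700 without model skin library 1, and 1895 and 1955 without control skin library 2 and model skin library 5. Without control skin library 2 the count above 0 was 2751. The fit of 24 libraries gave each gene a spread shared by both tissues, although skin varied more (median SE 0.155 against 0.0919). The SE of a difference driven by skin may therefore be too small, and can lie under that of the skin change itself. With limma voom and weights by tissue, 2544 of the 2942 differences were still called.

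**Figure D1:**
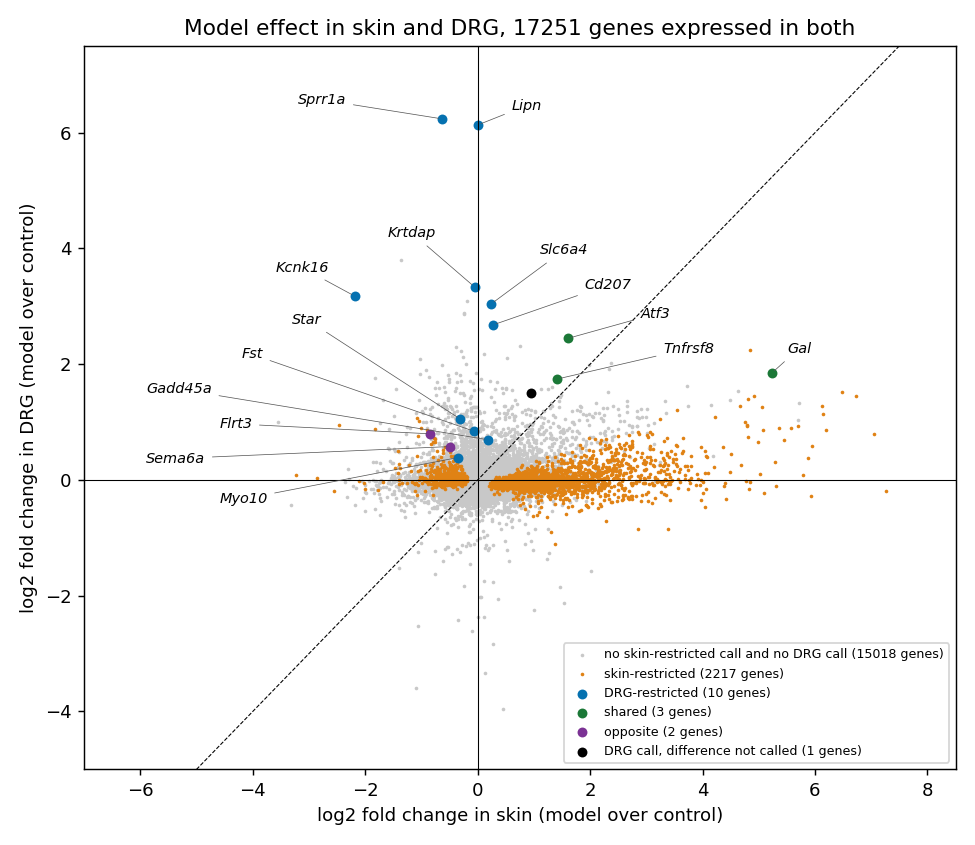
Each point is 1 of the 17251 genes; the x axis is the log2 fold change (model over control) in skin, the y axis that in DRG, both without units, and the dashed line marks equal change. The 2217 skin-restricted genes lie along the x axis, and 15 of the 16 genes called in DRG are named in the plot; all 16 lie above 0 on the y axis.

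Genes were placed in classes by their calls. A skin-restricted gene was called in skin and not in DRG, with the difference called as well and the skin change the larger in size, and a DRG-restricted gene was the reverse. Shared genes were called in the same direction in both tissues, and opposite genes in different directions. There were 2217 skin-restricted genes, 10 DRG-restricted genes, 3 shared genes and 2 opposite genes. A further 1148 genes were called in skin alone without meeting that definition: 1117 had no call for the difference, and 31 had one but a larger uncalled change in DRG. The 843 rises among the 1148 had a median DRG log2 change of 0.16, and 695 (82.4%) were also higher in model DRG. Of the 305 falls 233 (76.4%) were also lower in model DRG. Choosing genes without a called difference favours the same sign in both tissues. In addition, 1 gene was called in DRG with no call for the difference, 681 genes had a called difference with no call in either tissue, and 13189 had no call. The 5 genes called in both tissues made up 31.25% of the DRG calls and 0.148% of the skin calls. Below the threshold, the DRG change was above 0 for 56.9% of the 2581 genes that rose in skin. It was above 0 for 45.4% of the 789 that fell in skin, and for 42.5% of all genes.

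The 3 shared genes were Atf3, Gal and Tnfrsf8. Atf3, a stress-induced transcription factor (chr1:191170296-191183333 in GRCm38.p6), was at 5.16 to 16.6 CPM in control skin (median 6.22) and 15.1 to 29.4 in model skin (23). Atf3 levels in DRG were 4.56 to 7.41 in controls (6.53) and 25.7 to 41.8 in the model group (33.8). The DRG groups did not overlap, and the skin groups overlapped through control skin library 5 alone. Atf3 rose 3.04-fold in skin (log2 1.61 ± 0.29 SE, edgeR adjusted p = 0.0025) and 5.45-fold in DRG (2.45 ± 0.14, adjusted p = 1.1e-06). The difference of -0.92 (95% interval -1.61 to -0.23) had an adjusted p of 0.058. It was called without control skin library 6 (-1.03, adjusted p = 0.041) and without model skin library 3 (adjusted p = 0.045), and was -0.56 without control skin library 5 (adjusted p = 0.11).

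Gal encodes galanin, a neuropeptide of injured sensory neurons that acts on pain and on blood vessels (chr19:3409915-3414544). It was at 0 to 0.152 CPM in control skin (median 0) and 0.806 to 4.5 in model skin (1.35). The DRG libraries held Gal at 15.6 to 27.6 in controls (17.9) and 33.2 to 89.4 in the model group (76.6). No model library overlapped with the controls of its tissue, and every skin library was below every DRG library. Gal rose by 5.23 ± 0.78 on the log2 scale in skin (edgeR adjusted p = 0.00074) and by 1.85 ± 0.22 in DRG (3.6-fold, adjusted p = 0.0037), so the relative rise was larger in skin by 3.29 ± 0.75 (adjusted p = 0.0047). In CPM the gain was larger in DRG, where the mean went from 19.4 to 70.3, than in skin, where it went from 0.044 to 1.79.

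Tnfrsf8, the TNF receptor family member CD30 of activated lymphocytes, was low in all groups. It was at 0.188 to 0.71 CPM in control skin (median 0.265) and 0.492 to 1.91 in model skin (0.8). DRG levels of Tnfrsf8 were 0.0595 to 0.207 in controls (0.124) and 0.289 to 0.581 in the model group (0.442). The DRG groups did not overlap, the skin groups did. The rises of 1.41 ± 0.41 in skin and 1.74 ± 0.30 in DRG (edgeR adjusted p = 0.029 and 0.049) did not differ past the threshold (-0.41, 95% interval -1.46 to 0.64, adjusted p = 0.61). The DRG call was lost in 9 of the 24 fits that left out 1 library, with adjusted p up to 0.17, and the skin call in 4.

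The 2 opposite genes encode membrane proteins that guide growing axons. Flrt3, an adhesion protein with leucine-rich repeats (chr2:140658198-140671476), was at 96 to 262 CPM in control skin (median 236) and 69.3 to 152 in model skin (111). For Flrt3 the DRG values were 16.4 to 21.9 in controls (18.7) and 28.2 to 38.5 in the model group (32.5). The skin groups overlapped through control library 2, and the DRG groups did not overlap. Flrt3 fell by 0.84 on the log2 scale in skin (SE 0.25, edgeR adjusted p = 0.03) and rose by 0.80 ± 0.10 in DRG (adjusted p = 0.0034), a difference of -1.72 ± 0.27 (adjusted p = 0.00024).

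Sema6a, a transmembrane semaphorin, went the same way. It was at 37 to 63.9 CPM in control skin (median 56.2) and 31.2 to 47.7 in model skin (35.2). Sema6a levels in DRG were 14.1 to 17.6 in controls (15) and 19.1 to 25.6 in the model group (24). Its DRG groups did not overlap either. Sema6a fell by 0.48 in skin (SE 0.14, edgeR adjusted p = 0.032) and rose by 0.58 ± 0.08 in DRG (0.013), a difference of -1.14 ± 0.17 (0.00016). The difference was called for both genes in every fit that left out 1 library. The skin calls were lost in 7 of the 12 fits that left out a skin library for Flrt3 (adjusted p up to 0.067) and in 8 of 12 for Sema6a (up to 0.075). The Sema6a call in DRG was lost in 4 fits (up to 0.057).

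The 10 DRG-restricted genes were Sprr1a, Lipn, Kcnk16, Krtdap, Slc6a4, Cd207, Star, Fst, Gadd45a and Myo10. Sprr1a, a small proline-rich protein of the epidermal envelope that injured neurons also make, was at 611 to 2363 CPM in control skin (median 2132) and 792 to 1494 in model skin (1241). The DRG libraries held Sprr1a at 0.0833 to 0.535 in controls (0.16) and 5.51 to 25.7 in the model group (24). All 6 model DRG libraries were above all controls, with model DRG library 6 at 5.51 the lowest. Sprr1a rose by 6.24 ± 0.50 on the log2 scale in DRG (edgeR adjusted p = 0.00029). In skin the change was -0.63 ± 0.28 (0.13) and the difference -6.94 ± 0.58 (4.3e-07), with the gene on chr3:92483954-92485881. Control skin library 2, at 611 CPM, lay below every other control, and without it the skin change was -0.84 (adjusted p = 0.003), which made Sprr1a an opposite gene.

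Lipn, a lipase of the differentiating epidermis, was at 10.8 to 39.9 CPM in control skin (median 19.3) and 7.06 to 37.6 in model skin (18.2). DRG levels of Lipn were 0 to 0.0625 in controls (0) and 0.25 to 1.03 in the model group (0.917). Only 3 counts in 1 library were found over the control DRG group, against 272 over the model group, a ratio of 90.3 (95% exact interval 30.6 to 441, counting error only). Lipn thus passed the filter in DRG through the model libraries alone. The skin groups overlapped throughout, with a change of 0.00 ± 0.37, and the difference was -6.20 ± 0.89 (edgeR adjusted p = 9.5e-05). Krtdap, a secreted protein of differentiating keratinocytes, went from 0 to 0.178 CPM in control DRG (median 0.15) to 0.364 to 2.58 in model DRG (1.23). Krtdap rose by 3.34 ± 0.52 (adjusted p = 0.026), against -0.06 ± 0.38 in skin, and its DRG call was lost in 8 of the 24 fits without 1 library.

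Of the markers that define keratinocytes, Krt5, Krt14, Ivl and Flg were at or near 0 in DRG of both groups, while Krt10, Krt1 and Trp63 were detected in every DRG library. Krt5 had 5 counts over the 6 control DRG libraries and 7 over the 6 model libraries, Krt14 had 35 and 60, the envelope gene Ivl had 3 and 0, and filaggrin (Flg) had 0 counts in all 12 (a floor of 3 counts over a group is 0.00939 CPM in control DRG). Krt10 was at 1.76 to 2.76 CPM in the control DRG libraries and 1.52 to 2.6 in the model ones, and Krt1 at 0.317 to 0.656 and 0.247 to 0.667. The whole list of 19 epidermal genes had a summed level of 28.6 to 40.1 CPM over the DRG controls, 30.04 to 47.8 over the DRG model libraries and 20425 to 37888 over control skin. Of its 10 tested members 0 were called in DRG and 1 was higher at an unadjusted p under 0.05, with log2 changes from -0.08 to 1.54. As a share of the control skin mean, the model DRG mean was 1.04% for Sprr1a, 4% for Lipn and 0.23% for Krtdap, against 0.0003% for Krt5 and 0.0043% for Krt14.

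Kcnk16 encodes a potassium leak channel, Slc6a4 the serotonin transporter and Cd207 langerin, a lectin of Langerhans cells. Kcnk16 was at 0.0363 to 0.173 CPM in control DRG (median 0.11) and 0.637 to 1.34 in model DRG (1.08), a rise of 3.18 ± 0.32 (edgeR adjusted p = 0.0007). Its skin libraries ranged from 0.108 to 54.8 CPM in controls (median 36.5) and from 0.106 to 23 in the model group (0.842), so that the skin change of -2.19 had an SE of 1.26. Slc6a4 went from 0.102 to 0.999 CPM (0.547) to 1.41 to 8.79 (4.21) in DRG, a rise of 3.04 ± 0.47 (adjusted p = 0.026). Cd207 went from 0 to 0.127 CPM (0.11) to 0.429 to 0.836 (0.581), a rise of 2.68 ± 0.40 (0.015). The DRG groups of all 3 genes were separate, and neither Slc6a4 (0.24 ± 0.33) nor Cd207 (0.27 ± 0.25) was called in skin. The DRG calls were lost without 1 library in 7 of 24 fits for Slc6a4 and in 5 for Cd207.

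The last 4 DRG-restricted genes were expressed in control DRG at over 1 CPM. Gadd45a, a DNA damage and stress response gene, was at 12.1 to 14.2 CPM in control DRG (median 13.3) and 17.9 to 24.3 in model DRG (21.5), a rise of 0.69 ± 0.07 (edgeR adjusted p = 0.00071). Fst, the activin-binding protein follistatin, went from 3.19 to 4.6 CPM (4.04) to 5.8 to 8.45 (7.21), a rise of 0.84 ± 0.11 (0.0041). Myo10, a myosin of filopodia, went from 44.7 to 48.9 CPM (47.5) to 53.4 to 65.8 (62.8), a rise of 0.39 ± 0.05 (0.0048). Star, which carries cholesterol into mitochondria, went from 1.31 to 2.02 CPM (1.72) to 2.3 to 4.43 (3.63), a rise of 1.05 ± 0.16 (0.019). None of these groups overlapped in DRG, and the 4 skin changes lay between -0.35 (Myo10) and 0.18 (Gadd45a) with no call. Myo10 was called lower in skin without control skin library 2 (-0.50, adjusted p = 0.0097). The Star call in DRG was lost in 8 of 24 fits without 1 library.

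For 15 of the 16 genes called in DRG the model libraries all lay above the controls, which follows from their choice in these same libraries (0.377% of all genes did so, and 0.562% were separate in either direction, against 8.98% in skin). Of the 16, 8 had a log2 fold change below 0 in skin. In 11 of the 16 the lowest model value was that of model DRG library 6. Without that library 37 genes were called in DRG and 22 were DRG-restricted. The DRG-restricted count was 5 without control DRG library 4, and 6 without control DRG library 1 or model DRG library 2 or 3. The opposite count ranged from 0 to 4 over these fits.

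**Figure D2:**
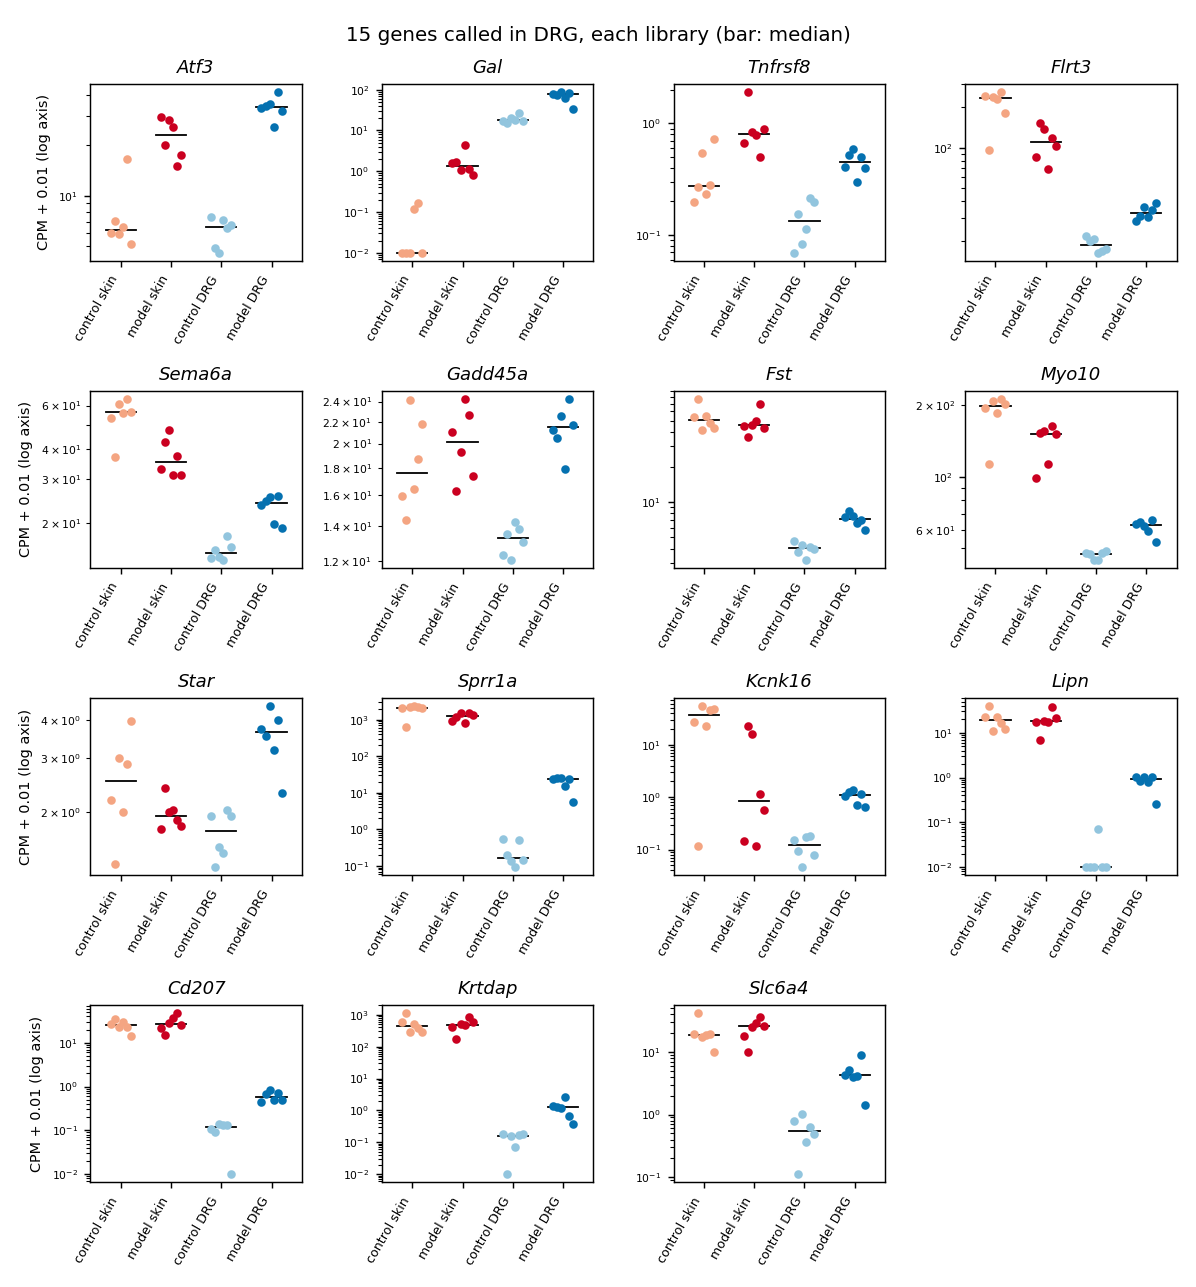
Each panel is 1 of 15 of the 16 genes called in DRG; points are the 6 libraries of each group in CPM plus 0.01 on a log axis, and bars are medians. In all 15 panels every model DRG point lies above the control DRG points, and Sprr1a, Lipn, Cd207, Krtdap and Slc6a4 are higher in every skin library than in any DRG library.

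Promoter sequence from RefSeq (GRCm38.p6, 250 bases before to 50 after each start) was found for 12718 of the 17251 genes and 12 of the 16 genes called in DRG. Each was searched on both strands for 4 motifs, counted separately whether or not they overlapped: ISRE (GAAA, any 2 bases, GAAA), GAS (TTCNNNGAA), AP-1 (TGANTCA) and CRE (TGACGTCA). AP-1, bound by FOS, JUN and related factors, matched in 5 of the 12 (41.7%), against 6.64% of all 12718. It was not particular to the DRG calls. Among gene lists described below with 0 DRG calls, it matched in 5 of 18 interferon-stimulated promoters (27.8%). It also matched in 2 of 9 promoters of interferon-gamma-inducible GTPases (22.2%) and 2 of 13 of monocyte and macrophage markers (15.4%). In the nerve injury list it matched in 1 of 12 (8.33%). ISRE, GAS and CRE matched in 0 of the 12. The matches are descriptions of letters, not of binding. The windows with AP-1 letters are shown because 4 of the 5 belong to DRG-restricted genes, among them the largest DRG rises; capitals mark the match, and each window lies before the RefSeq start (for Lipn, inside the longer gene model of the deposited table).
Sprr1a, chr3:92485973-92486052, minus strand: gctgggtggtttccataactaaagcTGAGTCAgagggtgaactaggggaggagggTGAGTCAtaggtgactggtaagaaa
Lipn, chr19:34067185-34067264, plus strand: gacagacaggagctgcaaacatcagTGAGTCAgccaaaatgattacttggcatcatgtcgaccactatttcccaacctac
Krtdap, chr7:30787799-30787878, plus strand: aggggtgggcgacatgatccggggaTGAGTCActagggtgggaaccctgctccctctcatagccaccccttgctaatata
Cd207, chr6:83677858-83677937, minus strand: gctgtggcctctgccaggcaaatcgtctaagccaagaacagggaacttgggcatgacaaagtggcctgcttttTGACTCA
Tnfrsf8, chr4:145315242-145315321, minus strand: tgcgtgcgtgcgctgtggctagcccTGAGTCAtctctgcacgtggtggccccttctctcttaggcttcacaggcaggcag

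Nerve injury and axon regeneration genes were a list of 24, of which 18 passed the filter in both tissues. In DRG 6 of the 18 rose (Atf3, Sprr1a, Gal, Gadd45a, Flrt3 and Sema6a), against 0.0927% of all genes, with a median log2 change of 0.47 against -0.02 over all genes. In skin 6 rose and 2 fell, and the difference was above 0 for 4 and below 0 for 4. The list was drawn up with results of these libraries known, so its counts are no independent evidence of its direction. Gap43, a growth cone protein, was at 0.109 to 0.727 CPM in control skin (median 0.288) and 2.19 to 5.09 in model skin (2.72). For Gap43 the DRG values were 160 to 218 in controls (177) and 171 to 201 in the model group (178). Gap43 rose by 3.18 ± 0.40 in skin (edgeR adjusted p = 0.00045), while the DRG change was 0.01 ± 0.07 (95% interval -0.15 to 0.16), a difference of 3.11 ± 0.34 (6.9e-06). Sox11, a transcription factor of growing neurons, rose by 3.64 ± 0.41 in skin and by no called amount in DRG (0.46 ± 0.08, adjusted p = 0.071), although its DRG groups of 11.4 to 15.2 and 17 to 20.4 CPM did not overlap. The difference for Sox11 was 3.10 ± 0.37 (1.7e-05).

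Among the 2258 genes that passed the filter in DRG alone, 2 were called (0.0886%). Gpr151, an orphan receptor of the injury list, rose from 1.52 ± 0.212 (SD, n = 6) to 6.21 ± 1.83 CPM, 4.07-fold (edgeR adjusted p = 0.00032), and its control libraries ended at 1.79 where the model libraries began at 3.5. The other was a predicted gene, Gm5152. The injury list neuropeptide Nts went from 6.51 ± 1.26 to 10 ± 0.743 CPM without a call (adjusted p = 0.078). Among the 2275 genes that passed in skin alone, 305 rose and 122 fell (18.8% called).

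Of the skin-restricted genes 1735 rose, with a median log2 change of 1.26 in skin and -0.02 in DRG, and 482 fell, with medians of -0.50 and 0.02. The DRG medians near 0 follow in part from the definition of the class. The 95% interval of the DRG change lay within 1.5-fold of no change for 76.3% of the rises and 90.2% of the falls, against 79.1% of all genes. Without control skin library 2 there were 4017 skin-restricted genes, of which 1574 fell, and without model skin library 4 only 196 fell. Of the 1407 genes that rose at least 2-fold in skin, 130 (9.24%) were higher in model DRG at an unadjusted p under 0.05, against 5.36% of all genes. For the lists that follow, the shares over all genes were 15% rising and 4.57% falling in skin. They were 10.6% above 0 and 6.43% below 0 for the difference. In DRG 0.0927% of all genes were called, so a list with 0 DRG calls is near that share.

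All 26 interferon-stimulated genes of the list rose in skin and none in DRG, and the difference was above 0 for all 26 (10.6% of all genes). Their median log2 change was 3.54 in skin and 0.13 in DRG, and the fold changes ran from 2.25 to 32.7 in skin and 0.898 to 1.57 in DRG. For 18 of the 26 the upper bound of the DRG interval was under 1.5-fold. Irf7, which amplifies interferon production, was at 10.1 to 15.7 CPM in control skin (median 10.7) and 35.3 to 256 in model skin (166). Irf7 levels in DRG were 4.54 to 5.46 in controls (5.13) and 3.37 to 6.83 in the model group (5.18). The skin groups were separate and the DRG groups overlapped. Irf7 rose 13.8-fold in skin (edgeR adjusted p = 0.00043), with a DRG change of 0.03 ± 0.13 and a difference of 3.68 ± 0.40 (6.1e-06).

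Ifi44, Oasl2 and Xaf1 were the other members with the smallest p for the difference, at 4.90 ± 0.51, 3.29 ± 0.35 and 2.24 ± 0.25 (edgeR adjusted p from 4.1e-06 to 7.6e-06). Oasl2, an antiviral synthetase relative, was higher in control DRG (21.9 to 30.2 CPM) than in control skin (4.74 to 9.66). Oasl2 was at 24.3 to 34.7 CPM in model DRG, a change of 0.05 ± 0.09 (95% interval -0.14 to 0.24). All 13 interferon-gamma-inducible GTPases, which attack vacuoles of intracellular microbes, rose in skin as well, and their differences were all above 0, with medians of 2.01 in skin and 0.21 in DRG. Igtp, for example, went from 5.47 to 18.6 CPM in control skin (median 9.03) to 27.7 to 62.4 in model skin (38.8), and from 9.01 to 12.7 (11.3) to 11.8 to 14.6 (13.3) in DRG. The difference for Igtp was 1.80 ± 0.29 (0.00024).

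ISRE, the site of IRF and ISGF3 factors, matched in 11 of the 18 interferon-stimulated promoters found (61.1%) and in 9 of 9 GTPase promoters, against 3.66% of all 12718 and 8.13% of the promoters of skin-restricted rises. GAS, the STAT motif, matched in 6 of the 9 GTPase promoters (66.7%) against 8.42% of all. Windows of 3 interferon-stimulated genes and 3 GTPases are shown because both groups rose together in skin; capitals mark ISRE letters on either strand, and in Isg15 and Gbp3 matches overlap.
Ifit1, chr19:34640760-34640839, plus strand: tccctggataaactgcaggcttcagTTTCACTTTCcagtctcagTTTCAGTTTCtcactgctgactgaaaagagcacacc
Ifit3, chr19:34583348-34583427, plus strand: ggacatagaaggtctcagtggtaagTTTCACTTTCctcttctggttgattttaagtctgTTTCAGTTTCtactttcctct
Isg15, chr4:156200842-156200921, minus strand: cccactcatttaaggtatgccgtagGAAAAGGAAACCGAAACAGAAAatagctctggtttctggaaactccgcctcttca
Igtp, chr11:58199476-58199555, plus strand: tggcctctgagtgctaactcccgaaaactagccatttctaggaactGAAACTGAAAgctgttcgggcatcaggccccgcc
Gbp3, chr3:142559964-142560043, plus strand: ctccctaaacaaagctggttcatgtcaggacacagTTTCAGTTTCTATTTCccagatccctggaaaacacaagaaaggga
Tgtp2, chr11:49064228-49064307, minus strand: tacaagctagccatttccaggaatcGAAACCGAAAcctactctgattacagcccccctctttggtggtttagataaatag

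**Figure D3:**
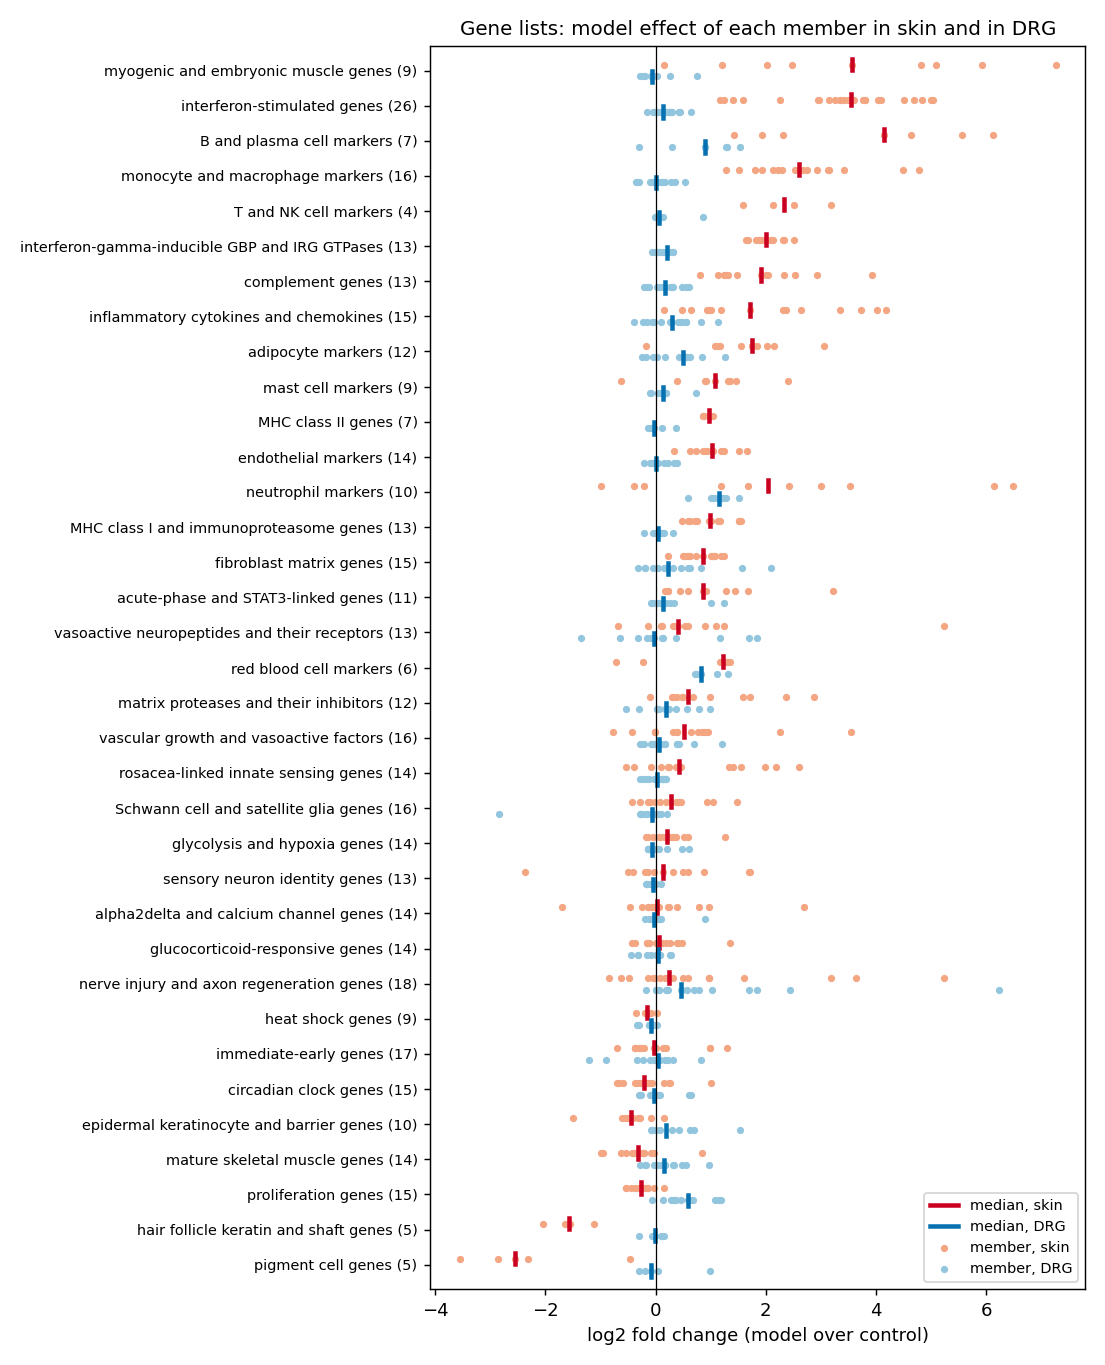
Each row is 1 of 35 gene lists, with the number of members tested in both tissues in brackets; small points are members' log2 fold changes (model over control) in skin (upper, orange) and DRG (lower, blue), and bars are medians. Muscle regeneration and interferon-stimulated genes have skin medians above 3.5 with DRG medians near 0, while nerve injury genes have a higher median in DRG (0.47) than in skin (0.25).

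Of 13 MHC class I and immunoproteasome genes 12 rose in skin and 0 in DRG, with 10 differences above 0, led by the proteasome subunit Psmb10 (skin 1.55 ± 0.19, DRG -0.20 ± 0.07, difference 1.68 ± 0.20, edgeR adjusted p = 1.3e-05). All 7 MHC class II genes tested rose in skin, with 6 differences above 0. Cd74, the class II invariant chain, was at 108 to 327 CPM in control skin (median 187) and 331 to 427 in model skin (384), and at 23.1 to 33.6 (26.3) and 23.5 to 38.7 (30.2) in DRG. The difference for Cd74 was 0.81 ± 0.25 (0.03), and the call was lost without control skin library 3 or 5, control DRG library 6 or model DRG library 1 (adjusted p up to 0.061).

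All 16 monocyte and macrophage markers rose in skin, with a median of 2.61, while their DRG median was 0.00 and all 16 differences were above 0. Fcgr1, the high-affinity antibody receptor of these cells, was at 1.02 to 6.34 CPM in control skin (median 2.37) and 10.4 to 110 in model skin (84.7). The DRG libraries held Fcgr1 at 0.917 to 1.4 in controls (1.19) and 0.972 to 1.4 in the model group (1.13). The skin groups did not overlap, while in DRG the ranges nearly coincided. The difference for Fcgr1 was 4.71 ± 0.62 (edgeR adjusted p = 4.2e-05). Of 13 complement genes all rose in skin and 11 had a difference above 0. C3ar1, the C3a receptor, had a difference of 3.81 ± 0.54 and C1qc one of 2.16 ± 0.35.

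Of 15 inflammatory cytokines and chemokines tested, 9 rose in skin, 0 in DRG, and 6 had a difference above 0. Ccl2, which recruits monocytes, was at 2.78 to 7.1 CPM in control skin (median 3.98) and 11 to 67.4 in model skin (39.2). DRG levels of Ccl2 were 0.912 to 1.5 in controls (1.08) and 1 to 1.43 in the model group (1.25). Ccl2 rose 10.2-fold in skin, and its difference was 3.16 ± 0.45 (edgeR adjusted p = 9.5e-05). Il1b rose in skin (1.71 ± 0.47, adjusted p = 0.022) with no call for the difference (1.18 ± 0.69, 0.24). Its skin call was lost without control skin library 5 or 6 or model skin library 4 (edgeR adjusted p up to 0.057). Among innate sensing genes linked to rosacea 7 of 14 rose in skin and 6 differences were above 0, with Tlr7 (2.69 ± 0.43), Nlrp3 (1.98 ± 0.42) and Tlr2 (1.37 ± 0.38, 0.016) among them. Klk5, the protease that cuts cathelicidin, had no call in either tissue (skin -0.40 ± 0.23, DRG -0.23 ± 0.09) or for the difference (-0.23, 95% interval -0.79 to 0.33, adjusted p = 0.59).

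Neutrophil markers were the immune group with the largest median DRG change. Of 10 tested, 5 rose in skin and 0 in DRG, with 3 differences above 0, and the medians were 2.04 in skin and 1.16 in DRG. Retnlg went from 0.135 to 0.585 CPM in control skin (median 0.197) to 1.26 to 32.6 in model skin (13.1), and from 1.3 to 3.65 (1.75) to 1.37 to 15 (2.29) in DRG. Model DRG library 5 held the highest DRG value. Without it the DRG change of Retnlg went from 1.14 to 0.28, that of Cd177 from 1.51 to 0.25, that of Slfn4 from 0.79 to -0.11 and that of S100a8 from 1.20 to 0.09. Red blood cell and proliferation genes had DRG medians of 0.82 and 0.59 with 0 calls in DRG and 0 calls for the difference. Without the same library the DRG change of Hbb-bs went from 0.72 to -0.05 and that of Mki67 from 1.15 to 0.21. In skin 4 of 6 red blood cell genes rose and 0 of 15 proliferation genes did.

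**Figure D4:**
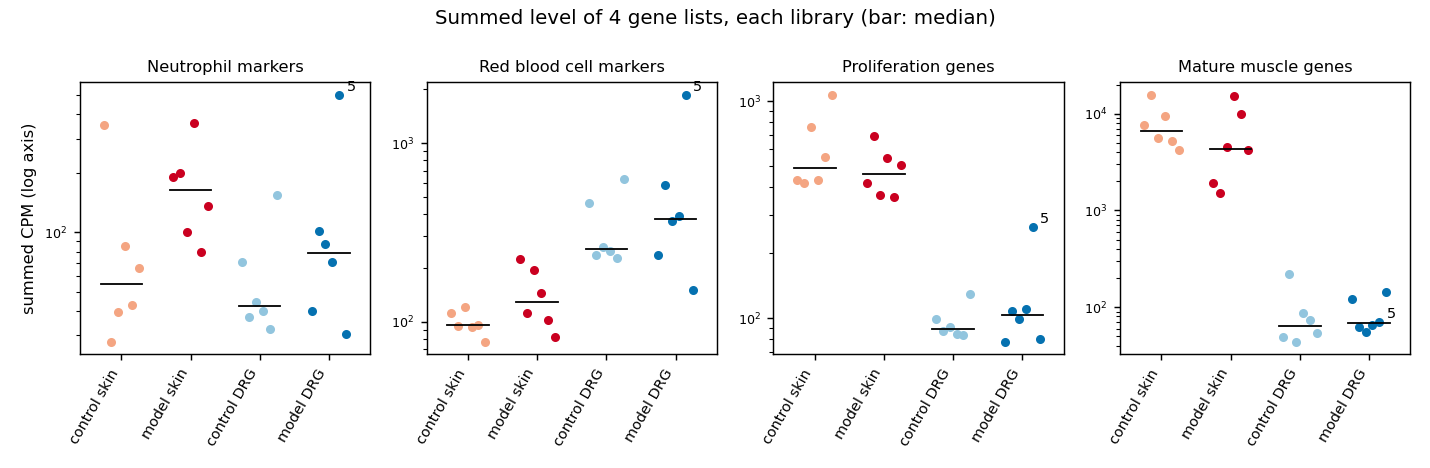
Each panel shows the summed CPM of 1 gene list on a log axis, with 1 point per library, 6 libraries per group and bars at the medians. Model DRG library 5, marked 5, is the highest DRG library for neutrophil markers (503 CPM), red blood cell markers (1869) and proliferation genes (263), but not for mature muscle genes.

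Lymphocyte markers had few members in the tested set. All 4 T and NK cell markers tested rose in skin and 3 differences were above 0, and 6 of 7 B and plasma cell markers rose with 3 differences above 0. The B cell count was 1 without control skin library 3 or model skin library 2 and 6 without model DRG library 5. Summed B cell markers were at 282 CPM in model skin library 2 against at most 44.5 in the other skin libraries, and at 113 in model DRG library 5 against at most 29 in the other DRG libraries. Their DRG log2 changes had a median of 0.89 and reached 1.53, with 0 calls in DRG. At an unadjusted edgeR p under 0.05, 2 of the 7 were higher in DRG (5.36% of all genes). Cd4, the helper T cell co-receptor, had a skin change of 3.19 ± 0.67 that was 1.96 without model skin library 2, which held 36.7 CPM against at most 5.01 in the other model libraries. The same library held 80.5 CPM of the lymphocyte GTPase Gimap3, whose skin change was 5.88 with it and 4.08 without it, and whose difference was 5.39 ± 1.06 and 3.67 (edgeR adjusted p = 0.0015 and 0.00035). Of 9 mast cell markers 7 rose in skin, with 4 differences above 0, a count of 2 in 11 of the 24 fits without 1 library.

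Mymk and Myh3, which serve muscle regeneration, had the largest and the third largest difference above 0 among genes that reached a mean of 1 CPM in a group. Of 9 tested, 8 rose in skin, 0 in DRG, and 8 had a difference above 0, with medians of 3.57 and -0.05. Mymk, the fusion protein myomaker of myoblasts (chr2:27061636-27072161), was at 0 to 0.173 CPM in control skin (median 0) and 3.78 to 8.55 in model skin (5.35). For Mymk the DRG values were 0.456 to 0.839 in controls (0.702) and 0.401 to 0.945 in the model group (0.458). The skin groups were far apart and the DRG groups overlapped. Mymk rose by 7.26 ± 0.66 in skin (edgeR adjusted p = 0.00034), with a DRG change of -0.20 ± 0.26 and a difference of 7.38 ± 0.67 (5.6e-07).

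Myh3, the embryonic myosin heavy chain, went from 0.313 to 2.19 CPM (median 0.618) to 21.1 to 83.8 (48.5) in skin and from 0.363 to 0.708 (0.496) to 0.247 to 0.636 (0.43) in DRG. Its difference was 6.13 ± 0.55 (edgeR adjusted p = 5.6e-07). Myl4, the embryonic and atrial myosin light chain, had the smallest p of all differences above 0 (3.46 ± 0.30, 4.3e-07), and Mymx, the partner of Mymk in fusion, had 5.25 ± 0.53. Mature muscle genes did not go with them: 0 of 14 were called in skin, in DRG or for the difference, with a skin median of -0.31 and summed skin levels of 1532 to 15785 CPM. The part of the muscle content of the skin samples in these rises was not tested.

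The other genes among the 6 largest differences above 0 were Slfn4, Phf11a, Gimap3 and Ifit1bl1, with predicted genes left out. Slfn4 is a schlafen gene of myeloid cells, and Ifit1bl1 belongs to the interferon-induced IFIT family. Slfn4 was at 0.811 to 5.03 CPM in control skin (median 2.93) and 33.2 to 692 in model skin (391). Slfn4 levels in DRG were 0.967 to 3.37 in controls (1.82) and 0.81 to 11.9 in the model group (2.19), a difference of 6.19 ± 0.98 (edgeR adjusted p = 0.00021). Phf11a had a difference of 5.60 ± 0.86 and Ifit1bl1 one of 5.33 ± 0.76. These genes, Gimap3, the GTPases and Sprr1a belong to families of similar copies, and Ifit1bl1 spans chr19:34592888-34662981, which takes in the promoter of Ifit1 shown above, so counts may be split between copies or overlapping genes. Aldh3b1, an aldehyde dehydrogenase, had a smaller difference with a small p (2.25 ± 0.23, 3.2e-06).

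**Figure D5:**
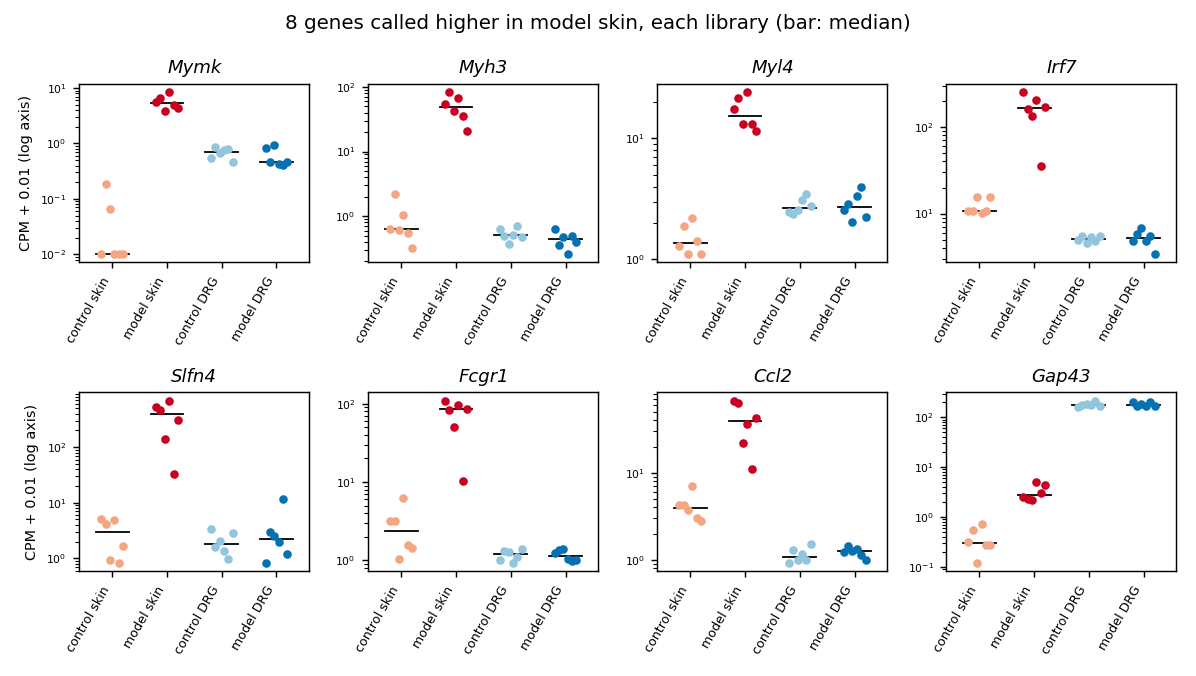
Each panel is 1 gene called higher in model skin; points are the 6 libraries of each group in CPM plus 0.01 on a log axis, and bars are medians. Model skin lies above control skin in all 8 panels with no overlap, while the DRG groups overlap in each panel, Gap43 being far higher in DRG than in skin.

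Of 14 endothelial markers 13 rose in skin and 0 in DRG, with medians of 1.02 and 0.00, and 10 differences were above 0 (6 without control skin library 5 or 6 or model skin library 4). Egfl7, a matrix protein of vessel walls, had the smallest p (skin 1.02 ± 0.15, DRG -0.22 ± 0.13, difference 1.16 ± 0.20, edgeR adjusted p = 0.00048). Among 16 vascular growth and vasoactive factors 6 rose in skin and 4 differences were above 0. In DRG 0 were called, and 4 were higher at an unadjusted edgeR p under 0.05 (5.36% of all genes). Vegfa, the main growth factor of vessels, was at 35.9 to 48.4 CPM in control skin (median 40.7) and 43.4 to 123 in model skin (68.8). The DRG libraries held Vegfa at 58.8 to 69.9 in controls (66.3) and 58.1 to 69.4 in the model group (60.8). Its skin groups overlapped, and its difference was 0.88 ± 0.22 (0.0085). Nos2, the inducible nitric oxide synthase, had a difference of 2.44 ± 0.53 (0.0034).

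Of 13 tested genes of vasoactive neuropeptides and their receptors 5 rose in skin and 1 in DRG (Gal), with 2 differences above 0 (Gal and Adcyap1r1), or 5 without control skin library 2. Calcrl, the receptor part for CGRP and adrenomedullin, was at 9.86 to 24.5 CPM in control skin (median 13.1) and 20.1 to 31.9 in model skin (25.6), and at 13.9 to 25 (20.5) and 17.3 to 28.6 (20.7) in DRG. Calcrl rose by 0.90 ± 0.22 in skin (edgeR adjusted p = 0.013), with a difference of 0.69 ± 0.28 (0.089) that was 0.95 without control skin library 2 (0.0058). Adcyap1r1, the PACAP receptor, rose by 1.24 ± 0.30 in skin. Its difference of 2.52 ± 0.67 (0.013) included control DRG library 5 at 43.5 CPM, where the other DRG libraries were at 3.5 to 5.36, and was 1.34 without it (0.011). By limma voom with weights by tissue the Adcyap1r1 difference was not called (adjusted p = 0.051). Ramp1, the other part of the CGRP receptor, had no call. The neuropeptide genes Calca, Tac1 and Adcyap1 passed the filter in DRG alone, with log2 changes of -0.16 ± 0.08, -0.13 ± 0.12 and 0.09 ± 0.11 and adjusted p from 0.57 to 0.83.

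Of 24 sensory neuron genes 11, among them Scn10a, Scn9a, Trpa1 and Mrgprd, passed the filter in DRG alone and were not in the tested set. Of the 13 tested 3 rose in skin and 0 in DRG, against 15% and 0.0927% of all genes. Uchl1, a ubiquitin hydrolase abundant in neurons, had a difference of 1.72 ± 0.40 (edgeR adjusted p = 0.0057), at no more than 0.662 CPM in skin. Trpm8, the cold receptor, had a difference below 0 (-2.44 ± 0.80, 0.04) at no more than 1.05 CPM in skin, a call lost in 17 of 24 fits without 1 library. Trpv1, the capsaicin receptor, had no call (difference 0.81 ± 0.36, 0.12). Of 16 Schwann cell and satellite glia genes 2 rose in skin (Mag and Pmp22), 1 fell (Erbb3) and 0 were called in DRG, with 4 differences above 0 (2 in 7 of the 24 fits without 1 library) and 1 below. In DRG 4 of the 16 were lower at an unadjusted edgeR p under 0.05 (4.63% of all genes) and 0 were higher. Mag, a myelin protein, had a difference of 1.67 ± 0.36 (0.0029), which was not called by limma voom with weights by tissue (adjusted p = 0.064).

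Among 14 calcium channel genes, which include the alpha2delta subunits that bind gabapentin, 2 rose in skin, 2 fell and 0 were called in DRG. Cacna2d1, the alpha2delta subunit tied to neuropathic pain, was at 246 to 396 CPM in control DRG (median 318) and 296 to 364 in model DRG (326), a change of 0.05 ± 0.11 (95% interval -0.18 to 0.28). Its skin change was -0.06 ± 0.34 and its difference -0.18 (95% interval -0.96 to 0.60). Cacna2d2, the other gabapentin-binding subunit, fell in skin by 0.47 (SE 0.14, edgeR adjusted p = 0.028) with a difference of -0.47 ± 0.16 (0.045), a call lost in 18 of 24 fits without 1 library and with each tissue normalised on its own (-0.40, 0.079). Cacna1b, the N-type channel, rose in skin by 2.69 ± 0.78 (0.03) at no more than 1.4 CPM, against 161 to 207 CPM in control DRG. This skin call was lost without control skin library 1, 3, 4 or 5 or model skin library 2 (edgeR adjusted p up to 0.069).

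Of the 1110 differences below 0, 482 belonged to skin-restricted falls, a number that ran from 196 to 1574 without 1 library. Etl4, which had the smallest p of these, went from 98.4 to 107 CPM in control skin (median 102) to 67.4 to 88.8 in model skin (78.4), and from 61.3 to 80.1 (74.8) to 75.2 to 96.8 (84.3) in DRG. The difference for Etl4 was -0.64 ± 0.11 (edgeR adjusted p = 0.0006). Gid8, a ubiquitin ligase subunit, and Plcd1, a phospholipase C of hair follicle and epidermis, had differences of -0.45 ± 0.08 and -0.94 ± 0.17. Slc16a13, Arhgap32 and Nxn had differences of -1.06 ± 0.20, -0.69 ± 0.14 and -0.71 ± 0.14. Only 56 of the 1463 genes called with at least a 2-fold change in skin were lower. A further 587 genes had a difference below 0 with no call in either tissue, with medians of -0.29 in skin and 0.11 in DRG.

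Beyond the genes called in DRG, the largest differences below 0 among genes that reached a mean of 1 CPM in a group were Slc24a5 (-4.64 ± 1.47, edgeR adjusted p = 0.033), Upk1b (-3.68 ± 0.90, 0.0079) and Ptgds (-3.50 ± 0.98, 0.017). None of these differences was called by limma voom with weights by tissue (adjusted p = 0.19, 0.072 and 0.24). Ptgds, the prostaglandin D2 synthase, was at 2.29 to 59 CPM in control skin (median 9.73) and 2.26 to 6.89 in model skin (2.65). DRG levels of Ptgds were 316 to 1918 in controls (678) and 551 to 3286 in the model group (1265). Both tissues overlapped between groups, and the spread within control skin was wide. Slc24a5, an ion exchanger of pigment granules, was spread from 0.168 to 41.2 CPM in control skin, and its call was lost in 9 of 24 fits without 1 library. Of 5 pigment cell genes tested 3 fell in skin and 3 had a difference below 0, but the latter count was 0 or 1 in 17 of the 24 fits without 1 library, and the summed pigment genes ran from 108 to 1109 CPM over the control skin libraries. Of pigment genes tested in skin alone, Mc1r and Slc45a2 were called lower (edgeR adjusted p = 0.04 and 0.032), while Tyr and Mlana were not called. Of 10 epidermal genes tested in both tissues 2 fell in skin. Among those tested in skin alone, Dsc1, Ivl and Cldn4 fell too (log2 -0.87, -0.83 and -0.76, edgeR adjusted p = 0.014, 0.043 and 0.0498). Krt5, Krt14, Flg, Flg2, Lor and Cdsn had no call there. Dsp, the desmosome protein desmoplakin, had a difference of -2.01 ± 0.49 (0.0075) with no call in either tissue.

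Of 17 immediate-early genes tested, 2 rose and 1 fell in skin and 0 were called in DRG, with 1 difference above 0 (3 without model skin library 6, 2 without control skin library 5) and 2 below (4 without model skin library 5, 1 without control skin library 1 or control DRG library 4). Fos, an AP-1 subunit, was at 12.4 to 52.8 CPM in control skin (median 16.7) and 17.7 to 80.3 in model skin (57.7). For Fos the DRG values were 4.6 to 19.6 in controls (8.52) and 3.96 to 7.88 in the model group (5.43). Fos rose in skin (1.30 ± 0.41, edgeR adjusted p = 0.041), was lower in DRG without a call (-0.90 ± 0.34, 0.45) and had a difference of 2.12 ± 0.55 (0.011). Its skin call was lost in 10 of the 12 fits that left out a skin library. Fosl2, another AP-1 subunit, fell in skin by 0.37 (0.023), with a difference of -0.66 ± 0.17 (0.0088).

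Adipocyte markers rose in skin for 11 of 12 genes (median 1.75), with a DRG median of 0.49 and 0 calls in DRG. They had 2 differences above 0, a count that was 7 without model skin library 5, 4 without control skin library 2 or model skin library 2 or 6, and 1 in 12 of the 24 fits. Fibroblast matrix genes rose for 10 of 15, with 5 differences above 0 (8 without control skin library 2, 3 without model skin library 1 and 2 without model skin library 4), and matrix proteases and their inhibitors for 6 of 12, with 4. In DRG these lists had 0 calls and medians of 0.23 and 0.19. In each of them 4 genes were higher in DRG at an unadjusted edgeR p under 0.05 (5.36% of all genes). Acute-phase genes rose in skin for 4 of 11, with 1 difference above 0 (3 without control skin library 1, 2 without model skin library 5), and hypoxia and glycolysis genes for 2 of 14, with 2 (5 without control or model skin library 2). Heat shock genes had 0 calls of 9 in any comparison, and circadian clock genes 0 of 15 for the difference, with 1 rise and 1 fall in skin. Hair follicle genes had 0 calls of 5, with a skin median of -1.57 and 10 of the 15 list genes outside the tested set. Without control skin library 2, the library low for these genes, 3 of their differences were below 0, and the part of hair content in the skin changes was not tested.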

How the data were processed

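PolyA RNA of 24 libraries was analysed, from skin and DRG, each with 6 control and 6 model libraries. Per the submitters' processing notes, the tools were bcl2fastq 2.20.0, Trimmomatic, HISAT2 2.1.0 and StringTie 2.1.3b, with GRCm38 (mm10). The authors deposited 1 gene table with read counts, FPKM and TPM for each library; only the count columns were used. The counting step and its use of strand are not given in the sources used here, so overlapping, antisense and near-identical genes may share reads.

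Genes had to pass edgeR's filter for low counts (filterByExpr) in skin and in DRG. The filter asks for enough counts in as many libraries as a group holds, so a gene can pass through 1 group alone. Lipn and Cd207 in DRG, and Gal and Mymk in skin, passed through the model libraries. Their place among genes expressed in both tissues thus rests on the group where they were high. The skin and DRG changes were fitted in the 12 libraries of each tissue, and their difference in 1 fit of 24, with TMM factors over the libraries of each fit, so the difference need not equal the subtraction. Tests were edgeR 4.0.16 quasi-likelihood tests (R 4.3.3, robust), with Benjamini-Hochberg adjustment over 17251 genes and a threshold of 0.05, and the code was tested on simulated data. CPM values use the TMM factors of all 24 libraries, except for genes tested in 1 tissue only. Intervals are at 95%, and those for counts cover counting error only. DESeq2 1.42.0, limma 3.58.1 (voom), other scalings and filters, replicate blocks and leaving out each library were alternatives.

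The members and lists were chosen with earlier results of these data known. Named were, leaving out predicted genes and those under a mean of 1 CPM in every group, the 6 largest differences and 3 smallest p in each direction, the leading genes of each class, up to 4 of each list by p of the difference, and a fixed set of neuropeptide, channel and inflammation genes. The genes called in DRG, the genes called in DRG alone, and Tnfrsf8, S100a8, Hbb-bs, Mki67, Dsp, Fos, Fosl2, Cacna2d1 and keratinocyte markers among others were added after their values were seen. Replicate numbers showed no pairing of skin with DRG in the data: over 12 same-numbered pairs the correlation of deviations from the group means was -0.144 to 0.0788. This check cannot show that same-numbered libraries came from different animals, and the main tests used no pairing. No pair of libraries within a group agreed within sampling noise, so none was counted as a duplicate. Values of 2 genes are not reported here.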

Additional observations from a re-analysis of the deposited data

Results flagged for a closer look

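The change differed between skin and DRG, by the test of the difference itself, for 2942 genes. Among the genes called in DRG it was above 0 for Gal (3.292 on the log2 scale). It was below 0 for Sprr1a (-6.936), Lipn (-6.199), Kcnk16 (-5.462), Krtdap (-3.451), Slc6a4 (-2.864), Cd207 (-2.476), Flrt3 (-1.717), Star (-1.434), Sema6a (-1.135), Fst (-0.9811), Myo10 (-0.8104) and Gadd45a (-0.5804).

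Single libraries stood far from the other 5 of their group by Dixon's test in 23 of the 128 groups tested. The chance rate of about 1 in 20 holds for independent, normally distributed values. Here the values were mostly untransformed CPM from the same libraries, for genes partly chosen after their values were seen. The count therefore cannot be read as an excess over chance. Control skin library 2 was low for Sprr1a (610.7 CPM) and Myo10 (113.2) and high for Fst (76.81), Slc6a4 (41.48) and Mymk (0.1733). Control skin library 5 was high for Atf3 (16.55) and Fos (52.83), control skin library 4 for Ccl2 (7.102), and control skin library 1 for summed neutrophil markers (353.5). Model skin library 4 was high for Gal (4.496), and model skin library 2 for Tnfrsf8 (1.913) and Ptgds (6.891). In control DRG, library 5 was high for Adcyap1r1 (43.5), library 4 for Lipn (0.0625), library 2 for summed mature muscle genes (221.3) and library 6 for summed neutrophil markers (155.3) and proliferation genes (129.5), while library 6 was at 0 for Cd207. In model DRG, library 6 was low for Lipn (0.2504), and library 5 was high for Slfn4 (11.87), summed neutrophil markers (503.4), red blood cell markers (1869) and proliferation genes (263).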

How the results depend on the processing

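The counts below are for differences above 0 (1832) and below 0 (1110), shared (3), opposite (2), skin-restricted (2217) and DRG-restricted (10) genes; the causes of the shifts were not tested. With TMM factors within each tissue, 654 differences were below 0. DESeq2 gave 1719 below 0, 25 shared, 22 opposite and 45 DRG-restricted genes. Requiring an absolute log2 of at least 1 gave 1096 above 0, 239 below 0, 0 opposite and 1059 skin-restricted genes, which its own construction explains. Taking the within-tissue changes from the fit of 24 libraries gave 21 DRG-restricted genes. A mean of at least 1 CPM in both tissues, chosen after seeing the data, gave 1 shared and 6 DRG-restricted genes. Leaving out each library in turn gave 1505 to 2751 above 0, 556 to 1955 below 0, 2 to 4 shared, 0 to 4 opposite, 1574 to 4017 skin-restricted and 5 to 22 DRG-restricted genes. The number of genes called in DRG was 131 with DESeq2, 17 with RLE factors, 19 with no filter, 13 with limma voom, 11 with an absolute log2 of at least 1, 9 with a mean of at least 1 CPM, 5 under the replicate block by number and 9 to 37 without 1 library. It was 31 in the fit of 24 libraries, with 11 of the 16 still called. Among the named genes followed through the alternatives, no change past the threshold reversed its direction. The directions of the other called genes were not compared.

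The replicate numbers do not pair the libraries, and the replicate block by number gave 0 opposite and 2 DRG-restricted genes, while the replicate block by condition and number gave 669 differences below 0. Of the 12 same-numbered skin and DRG pairs, 3 correlated best with their own number.

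Depth limits the genes under 1 CPM in control DRG (7 of the 16 called there), whose fold changes rest on few counts.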
